A study of Homo sapiens with 3 samples.

Results

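Structural RNAs work as RNA and are not translated, and 8 of them are described here in HEK293 cells kept in normal medium, in DMSO or in the flame retardant BDE-209. The 8 were 7SL RNA from 2 gene copies (RN7SL1 NR_002715 and RN7SL2 NR_027260), the ribosomal RNAs (rRNAs) 28S NR_003287, 18S NR_003286 and 5.8S NR_003285, and RN7SK NR_001445, RMRP NR_003051 and RPPH1 NR_002312. They were chosen by these RefSeq identifiers, out of 25443 transcripts in the 3 samples, with their levels in these samples already known. Their differences between samples are therefore a description and were not tested. All 8 had reads in all 3 samples and a mean of at least 1 RPKM, the limit used for counts over all transcripts.

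RPKM is a read count divided by the length of the transcript and by the size of the library, so levels can be set side by side between RNAs. HEK293 is a human embryonic kidney line, which the study's methods call HEK293T, the form that also carries the SV40 large T antigen. All cells were grown in DMEM with fetal bovine serum, and the treatments lasted 48 h. The BDE-209 sample received 1 µM BDE-209 (decabromodiphenyl ether) together with 1 mM DMSO as its solvent, the DMSO sample received 1 mM DMSO alone, and the control received neither. One label of the control could be read as containing BDE-209, but its title and the treatment protocol describe medium without it. There was 1 sample per group, so no difference below has a replicate check, and intervals cover counting error only. PCR copies of 1 molecule cannot be recognised in these data, which would make the true counting error larger. The mapped reads behind the RPKM values were 4843622 in the control, 4782048 in DMSO and 4676792 in BDE-209. Of 9 genes typical of this line, 7 had at least 1 RPKM in all samples, while PAX2 was not listed and LHX1 was at 0.914 RPKM in DMSO, and 6 markers of other cell types reached at most 0.438 RPKM.

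RNA polymerase I makes a long precursor in the nucleolus that is cut into 18S, 5.8S and 28S rRNA, the RNA core of the ribosome. RNA polymerase III makes the other 5 RNAs. 7SL is the scaffold of the signal recognition particle (SRP), which takes ribosomes that make secreted or membrane proteins to the endoplasmic reticulum. RN7SK (7SK RNA) keeps the transcription elongation factor P-TEFb inactive together with HEXIM, LARP7 and MEPCE. RMRP is the RNA of RNase MRP, which cuts the rRNA precursor, and RPPH1 is the RNA of RNase P, which trims the 5′ end of transfer RNA precursors. None of these RNAs carries the long polyA tail of a messenger RNA. The libraries were made from polyA RNA, so the values give the part of each RNA that remained after selection and not its amount in the cell.

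7SL was among the most abundant RNAs in the control and was far lower in both other samples. Its copies RN7SL1 and RN7SL2 are nearly identical, so reads may have been split between them, and they are also given as a sum below. RN7SL1 was at 1212 RPKM in the control (95% Poisson interval 1156 to 1270), 59.4 RPKM in DMSO (47.5 to 73.5) and 75.1 RPKM in BDE-209 (61.4 to 90.9). These levels rested on 1755, 85 and 105 reads. RN7SL2 was at 1232 RPKM in the control (1175 to 1290), 48.3 in DMSO (37.5 to 61.1) and 67.2 in BDE-209 (54.3 to 82.3), from 1784, 69 and 94 reads. In both copies the control was high and the intervals of the other samples lay well below it. By level, RN7SL1 was number 59 of all transcripts in the control, number 1537 in DMSO and number 1128 in BDE-209. In bulk RNA, fewer cells with an RNA and fewer copies per cell cannot be told apart, and how much of an untailed RNA passed the polyA selection in each library was not tested.

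**Figure D1:**
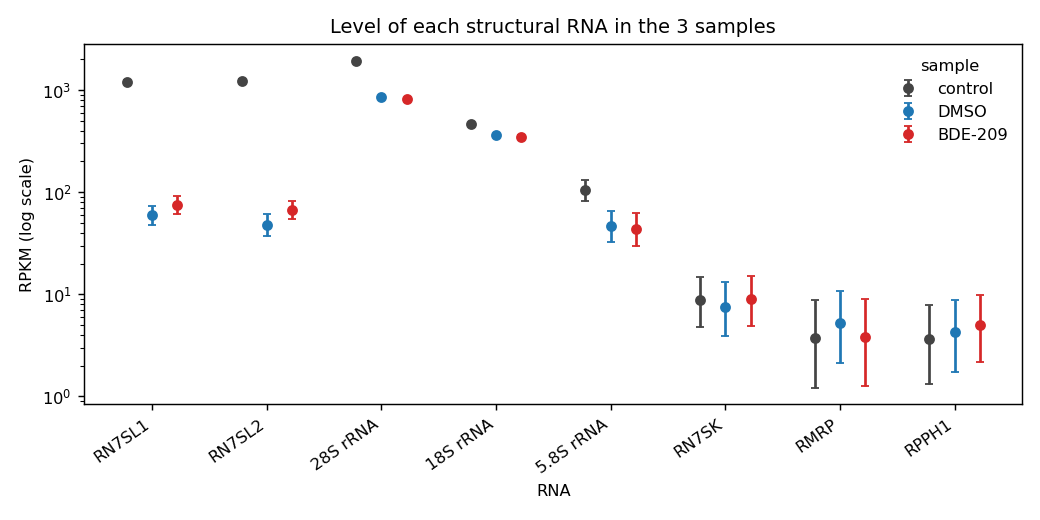
Level of each of the 8 structural RNAs in RPKM (log scale) in the control, DMSO and BDE-209 samples, 1 sample each, with 95% Poisson intervals of the reads as bars. RN7SL1 and RN7SL2 fall from 1212 and 1232 RPKM in the control to between 48.3 and 75.1 RPKM in the other samples, the 3 rRNAs are also highest in the control, and RN7SK, RMRP and RPPH1 stay below 10 RPKM with overlapping intervals.

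28S rRNA, the large RNA of the 60S subunit, had the highest level of the 8 in every sample. It was at 1939 RPKM in the control (1922 to 1956), 863 in DMSO (851 to 875) and 812 in BDE-209 (800 to 823), from 47616, 20926 and 19246 reads. The control was above both treated samples, and the intervals were narrow at this depth. 18S rRNA, the RNA of the small subunit, was at 464 RPKM in the control (450 to 478), 363 in DMSO (351 to 376) and 349 in BDE-209 (337 to 362). It showed the same order of samples with a much smaller distance between them. 5.8S rRNA pairs with 28S in the large subunit and was at 105 RPKM in the control (82.8 to 130), 46.9 in DMSO (32.7 to 65.3) and 43.9 in BDE-209 (30.0 to 61.9). Its control interval did not overlap the others, although the levels rested on only 79, 35 and 32 reads.

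5.8S rRNA is the shortest of the 3 rRNAs described here. Its sequence is shown because it gave reads although none of its stretches of read length was single in the assembly. It was read from a ribosomal gene unit on an unplaced scaffold of GRCh37.
5.8S rRNA: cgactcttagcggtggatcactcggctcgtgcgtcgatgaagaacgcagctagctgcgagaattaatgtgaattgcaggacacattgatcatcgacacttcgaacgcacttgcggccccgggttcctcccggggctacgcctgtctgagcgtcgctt
Every start of a read of 49 bases was taken as a window and matched to the assembly. None of the 109 windows of 49 bases in 5.8S and none of the 1821 in 18S occurred only once in GRCh37, against 479 of 5022 (9.54%) in 28S. Reads were counted on all 3 rRNAs although only uniquely placed reads were kept, and the sources used here do not say how.

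RN7SK, RMRP and RPPH1 were low in every sample, with no sample standing out. RN7SK was at 8.71 RPKM in the control (4.76 to 14.6), 7.56 in DMSO (3.91 to 13.2) and 9.02 in BDE-209 (4.93 to 15.1), from 14, 12 and 14 reads. RMRP was at 3.73 RPKM in the control (1.21 to 8.70), 5.28 in DMSO (2.12 to 10.9) and 3.86 in BDE-209 (1.25 to 9.01), from 5, 7 and 5 reads. RPPH1 was at 3.63 RPKM in the control (1.33 to 7.91), 4.29 in DMSO (1.73 to 8.84) and 5.02 in BDE-209 (2.17 to 9.88), from 6, 7 and 8 reads. All intervals of an RNA overlapped between the samples. RN7SK is read from chr6:52860418-52860748 (plus strand) and RMRP from chr9:35657751-35658014 (minus strand), each under its own GENCODE entry in GRCh37. Of the windows of read length, 65 of 283 (22.97%) in RN7SK and all 216 in RMRP were single in the assembly.

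The first comparison, DMSO against control, addresses what the solvent alone does, and 7SL and rRNA were lower in the DMSO sample. RN7SL1 was 20.2-fold and RN7SL2 25.3-fold lower in DMSO, 28S 2.25-fold and 5.8S 2.22-fold lower. 18S was 1.28-fold lower, and RN7SK, RMRP and RPPH1 lay on both sides of no difference. Fold differences were taken on log2(RPKM + 0.5), which slightly understates those of low RNAs. With a difference of at least 2-fold as the limit, 4 of the 8 were lower and 0 higher, where 0.565% of all 15573 transcripts with a mean of at least 1 RPKM were lower by as much and 0.469% were higher. Of the 1315 non-coding transcripts (NR_ identifiers) among these, 5.25% were 2-fold lower and 2.66% higher. Since the 8 were chosen with these values known, nothing is read from these shares.

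On the log2 scale, DMSO minus control, the difference was -4.34 for RN7SL1, with a 95% Clopper-Pearson interval of the read ratio from -4.68 to -4.04. It was -4.66 for RN7SL2 (-5.04 to -4.33). The sum of both copies, which does not depend on such a split, was at 2444 RPKM in the control and 108 in DMSO, a difference of -4.50 (-4.75 to -4.27). 28S differed by -1.17 (-1.19 to -1.14), 18S by -0.35 (-0.42 to -0.29) and 5.8S by -1.15 (-1.77 to -0.56). The whole interval lay past 2-fold for RN7SL1, RN7SL2 and 28S, while that of 5.8S reached to less than 2-fold and that of 18S stayed within it. RN7SK differed by -0.19 (-1.45 to 1.02), RMRP by 0.45 (-1.37 to 2.50) and RPPH1 by 0.21 (-1.56 to 2.09). At 5 to 14 reads a sample, a difference of 2-fold in these RNAs was not detectable at this depth.

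**Figure D2:**
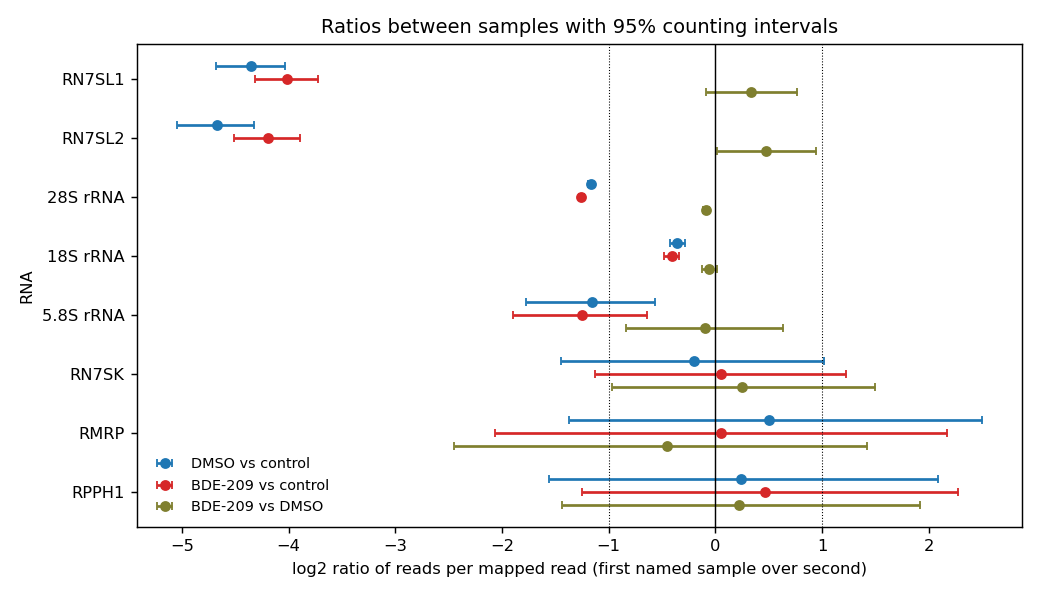
Log2 ratio of the reads per mapped read of each RNA between samples, first named sample over second, with 95% Clopper-Pearson intervals as bars and dotted lines at 2-fold. Both 7SL copies and 28S lie wholly past 2-fold in the 2 comparisons with the control, while RN7SK, RMRP and RPPH1 have intervals that include 0 in all 3 comparisons.

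BDE-209 against control asks what BDE-209 and its solvent do together, and it shares the control sample with the first comparison. RN7SL1 was 16.0-fold and RN7SL2 18.2-fold lower in BDE-209, 28S 2.39-fold and 5.8S 2.37-fold lower, and 18S 1.33-fold lower. Again 4 of the 8 were at least 2-fold lower and 0 higher, where 0.507% of all transcripts were lower and 0.43% higher by that limit, and 3.65% of the non-coding ones were lower and 3.12% higher. In log2 values, BDE-209 minus control, RN7SL1 differed by -4.00 (-4.31 to -3.73), RN7SL2 by -4.19 (-4.51 to -3.90) and their sum by -4.10 (-4.32 to -3.90). For the rRNAs the differences were -1.26 for 28S (-1.28 to -1.23), -0.41 for 18S (-0.48 to -0.34) and -1.24 for 5.8S (-1.89 to -0.64). RN7SK, RMRP and RPPH1 differed by 0.05 (-1.13 to 1.23), 0.04 (-2.07 to 2.17) and 0.42 (-1.25 to 2.27). Because 1 control library enters both comparisons, the likeness of their values says nothing about a second sample of untreated cells.

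BDE-209 against DMSO addresses BDE-209 itself, since both samples held the same DMSO, and here none of the 8 differed by 2-fold. Of all transcripts, 1.1% differed by at least 2-fold in either direction, 0.514% lower and 0.591% higher, and of the non-coding ones 3.42% were lower and 4.56% higher. RN7SL1 was 1.26-fold and RN7SL2 1.39-fold higher in BDE-209, log2 differences of 0.33 (-0.09 to 0.77) and 0.47 (0.01 to 0.95). Their sum, at 142 RPKM in BDE-209 and 108 in DMSO, differed by 0.40 (0.09 to 0.71), an interval above 0 that holds counting error only. 28S was lower by a small amount, -0.09 (-0.12 to -0.06), and 18S (-0.05, -0.13 to 0.02) and 5.8S (-0.10, -0.84 to 0.64) had intervals that included 0. RN7SK differed by 0.24 (-0.97 to 1.50), RMRP by -0.41 (-2.45 to 1.42) and RPPH1 by 0.20 (-1.43 to 1.92). How far 2 libraries of the same treatment differ in these RNAs is not known here, so a difference of this size between BDE-209 and DMSO has no scale to be set against.

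As groups, the products of the polymerases took very different shares of the libraries. The 3 rRNAs took 1.07% of mapped reads in the control (95% Wilson interval 1.06 to 1.08), 0.506% in DMSO (0.4998 to 0.5126) and 0.478% in BDE-209 (0.471 to 0.484). 28S made up most of this, with 0.983% of the reads in the control, 0.438% in DMSO and 0.412% in BDE-209. The summed rRNA reads per mapped read differed by -1.08 between DMSO and control (-1.10 to -1.06), -1.17 between BDE-209 and control (-1.19 to -1.14) and -0.08 between BDE-209 and DMSO (-0.11 to -0.06). 7SL took 0.0731% of reads in the control, 0.00322% in DMSO and 0.00426% in BDE-209. RN7SK, RMRP and RPPH1, made by the same polymerase as 7SL, had 25, 26 and 27 reads together, a log2 difference of 0.08 between DMSO and control (-0.77 to 0.93) and 0.16 between BDE-209 and control (-0.68 to 1.01). The upper ends of the 7SL intervals lay far below the lower ends of these. All 8 RNAs together took 1.15% of reads in the control, 0.510% in DMSO and 0.482% in BDE-209.

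Ratios between RNAs within a sample do not depend on the scaling between samples. The ratio of 28S to 18S in RPKM was 4.18 in the control (4.05 to 4.31), 2.38 in DMSO (2.29 to 2.47) and 2.32 in BDE-209 (2.24 to 2.41). The control stood apart here beyond counting error. How reads were placed on these repeated sequences, and how much of each RNA passed the polyA selection, is not known. The ratio is therefore not that of the RNAs in the cell. The ratio of 28S to 5.8S was 18.5 in the control (14.9 to 23.4), 18.4 in DMSO (13.2 to 26.4) and 18.5 in BDE-209 (13.1 to 27.1), so this ratio was close to the same in all 3. That of 18S to 5.8S was 4.44 in the control (3.55 to 5.62), 7.74 in DMSO (5.55 to 11.1) and 7.97 in BDE-209 (5.63 to 11.7). The ratio of RN7SL1 to RN7SL2 was 0.984 in the control (0.920 to 1.05), 1.23 in DMSO (0.886 to 1.72) and 1.12 in BDE-209 (0.838 to 1.49), and these intervals overlapped. The ratio of 28S to RN7SL1 was 1.60 in the control (1.53 to 1.68), 14.5 in DMSO (11.7 to 18.2) and 10.8 in BDE-209 (8.92 to 13.2). The difference in 7SL was thus much larger than that in 28S.

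**Figure D3:**
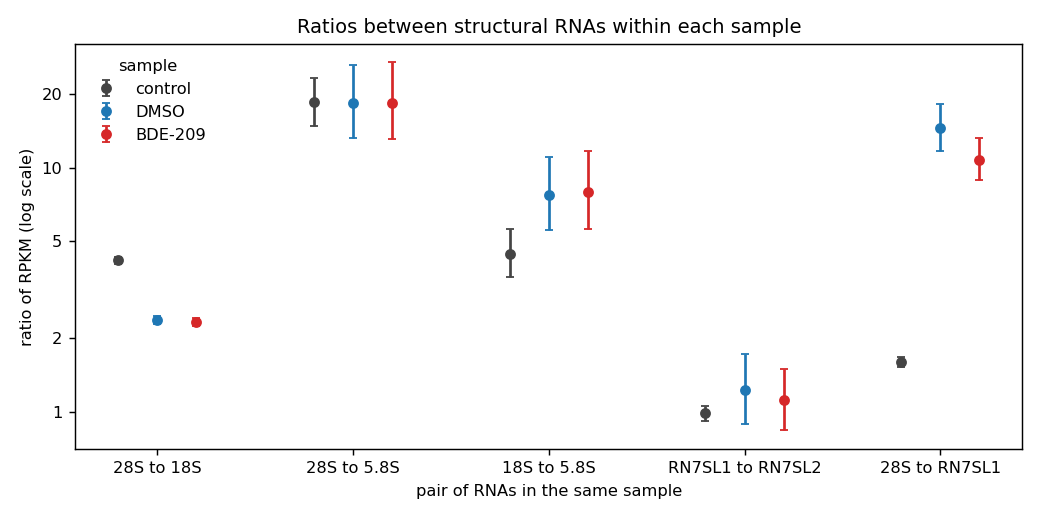
Ratio of RPKM values (log scale) between pairs of structural RNAs within each sample, with 95% Clopper-Pearson intervals as bars. The ratio of 28S to 18S is 4.18 in the control against 2.38 and 2.32 in the other samples, while that of 28S to 5.8S lies between 18.4 and 18.5 in all 3.

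The spread of other abundant transcripts shows how far the rest of these libraries differed. Messenger RNAs took 94.95% to 95.62% of all RPKM. This spread therefore does not measure how the carry-over of untailed RNAs through polyA selection varied between libraries, which was not tested. In all, 837 transcripts had at least 100 RPKM in a sample, 5 of them among the 8 structural RNAs. RN7SL1, RN7SL2 and 5.8S reached this level in the control only, so no count of differing RNAs is drawn from this range. The 832 others in this range differed between DMSO and control by at most -0.54 downward (HSPA1B, an inducible heat shock protein) and 0.35 upward (PSAT1, an enzyme of serine synthesis), with an SD of 0.093. In BDE-209 against control their range was -0.51 (HSPA1A) to 0.36 (PSAT1), with an SD of 0.0969. Between BDE-209 and DMSO it was -0.33 (H1-10, a linker histone) to 0.33 (MRPS21, a protein of the mitochondrial ribosome), with an SD of 0.072. 18S, with -0.35 and -0.41 against the control, lay inside the first 2 of these ranges, whose ends are single transcripts. The medians of these ranges were -0.0093 and -0.028. Since this spread does not cover the carry-over of untailed RNAs, it is no scale for 18S, and the place of 18S is a description only.

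**Figure D4:**
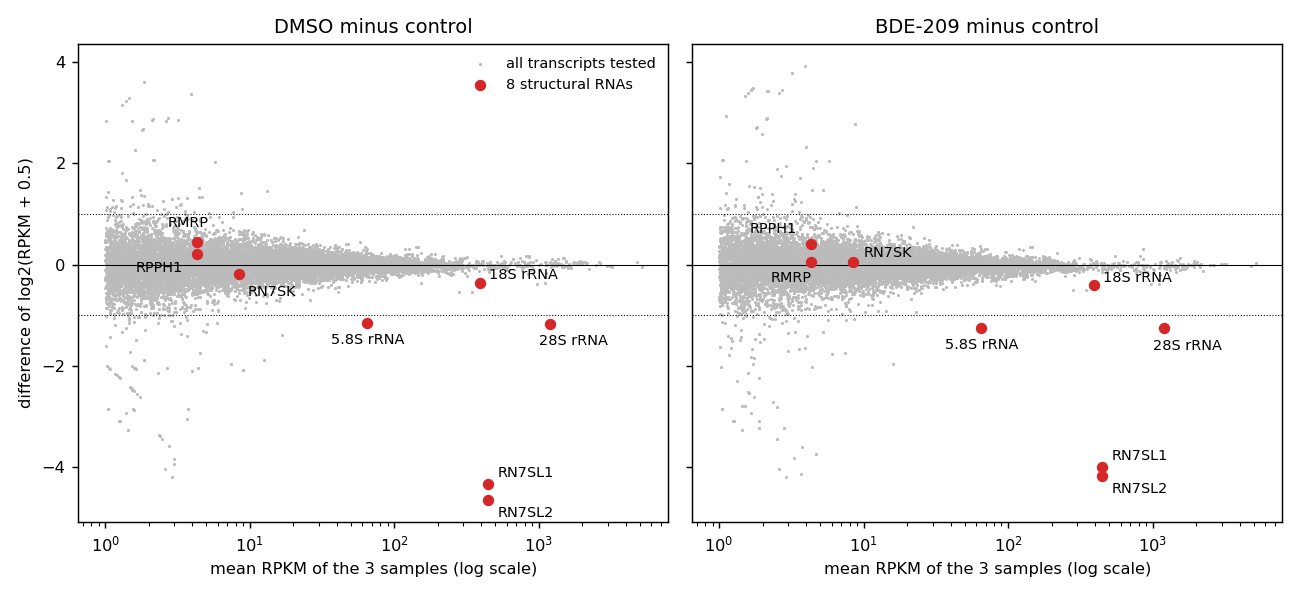
Difference of log2(RPKM + 0.5) against mean RPKM (log scale) for the 15573 transcripts with a mean of at least 1 RPKM (grey) and the 8 structural RNAs (red), DMSO minus control on the left and BDE-209 minus control on the right, with dotted lines at 2-fold. RN7SL1 and RN7SL2 lie at -4.00 or lower at a high mean level, 28S and 5.8S just past -1, and the other 4 among the grey points.

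Of 9313 transcripts with at least 100 reads in DMSO or control, the 3 largest differences were those of RN7SL2, RN7SL1 and 28S, and the next was -0.69 for TVP23C, a Golgi membrane protein. With 69 and 85 reads in DMSO, RN7SL2 and RN7SL1 met the limit through the control alone, so their place is a description only. Of 9298 in the BDE-209 and control pair the same 3 led, RN7SL2 again through its control reads (94 in BDE-209), followed by -0.80 for HOXB2, a homeobox factor. Between BDE-209 and DMSO (9258 transcripts) none of the 8 led. The largest there were EIF6 (NM_181468), a factor that keeps ribosomal subunits apart, with -0.69 (-1.19 to -0.25), and the developmental factors HLX with -0.65 and HAND1 with -0.65.

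The transcripts whose pattern was most like that of RN7SL1 were looked for among 14887 with a mean of at least 1 RPKM and 10 reads or more in the control. Likeness was the Euclidean distance in the log2 differences from the control in DMSO and BDE-209. RN7SL2 was nearest, at 0.37, but the copies are nearly identical and may share reads, so this place was given in advance. The limit of 10 reads was set on the control, where 7SL was high, so the order is a description only. The next transcripts lay much further away. These were the pseudogene RPL13AP6 at 3.79 (10, 4 and 1 reads in control, DMSO and BDE-209), NR_024450 at 4.05 (25, 10 and 5 reads), TMEM191A at 4.07 (19, 3 and 7 reads) and the snoRNA SNORA70 at 4.15 (17, 10 and 4 reads). 28S followed at 4.20, the chemokine CCL16 at 4.21 (14, 6 and 2 reads) and 5.8S at 4.22, with far more reads in the case of 28S.

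Of other small RNAs made by polymerase III, 4 had a mean of at least 1 RPKM. None of these 4 differed by 2-fold in any comparison, where 7.91%, 6.77% and 7.98% of non-coding transcripts did, in the order below. The median log2 differences of the 4 were 0.02 for DMSO against control, -0.08 for BDE-209 against control and -0.0036 for BDE-209 against DMSO. BCYRN1 (NR_001568, BC200), a regulator of translation in neurons whose 5′ part comes from an Alu element and so from 7SL, was at 1229 RPKM in the control, 1098 in DMSO and 1073 in BDE-209, from 1191, 1050 and 1004 reads. Its level in the control was close to that of RN7SL1 and RN7SL2. Its log2 differences were -0.16 for DMSO against control (-0.28 to -0.04), -0.20 for BDE-209 against control (-0.32 to -0.07) and -0.03 for BDE-209 against DMSO (-0.16 to 0.09). Whether BCYRN1 and 7SL pass polyA selection alike was not tested, so BCYRN1 gives no measure for 7SL. The 4 RNAs had a median of 2 reads in the control, so nothing is read from their count. The Y RNA RNY3, a partner of the Ro60 protein, had 3, 3 and 2 reads in control, DMSO and BDE-209. No further rRNA was found among the transcripts by its symbol.

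Small nuclear and nucleolar RNAs, which also lack a polyA tail, were covered by few reads. The counts for them stand beside the shares of non-coding transcripts past 2-fold, 5.25% lower and 2.66% higher in DMSO against control, 3.65% and 3.12% in BDE-209 against control, and 3.42% and 4.56% in BDE-209 against DMSO. Over all transcripts they were 0.565% and 0.469%, 0.507% and 0.43%, and 0.514% and 0.591% in the same order. Box C/D snoRNAs guide the methylation of rRNA, and of 42 with a mean of at least 1 RPKM, 20 were at least 2-fold lower and 4 higher in DMSO than in control, with a median log2 difference of -0.89 against 0.0054 over all transcripts. In BDE-209 against control 14 were lower and 3 higher (median -0.78, against 0.0036 over all transcripts), and in BDE-209 against DMSO 11 were lower and 14 higher (median 0.03, against 0.0004 over all transcripts). The median box C/D snoRNA had 2 reads in the control, and no single one had an interval without 0. Summed, they had 133, 88 and 95 reads in control, DMSO and BDE-209, log2 differences of -0.58 for DMSO against control (-0.98 to -0.18) and -0.43 for BDE-209 against control (-0.83 to -0.04). SNORD83A had 4, 0 and 0 reads in that order, SNORD14E 3, 0 and 0, and SNORD26 0, 2 and 0. These met the limit of 1 RPKM through 1 sample alone, the control for SNORD83A and SNORD14E and DMSO for SNORD26. An RNA that enters through the control alone counts as lower in both comparisons with it. The counts, medians and sums of box C/D snoRNAs are therefore a description only.

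Box H/ACA snoRNAs, which guide pseudouridine formation in rRNA, did not show a common direction. Of 64, 18 were at least 2-fold lower and 15 higher in DMSO against control, 12 lower and 19 higher in BDE-209 against control, and 10 lower and 17 higher in BDE-209 against DMSO, with medians of -0.17, 0.30 and 0.22 against 0.0054, 0.0036 and 0.0004 over all transcripts. The shares of non-coding transcripts past 2-fold given for box C/D snoRNAs stand beside these counts and those that follow, which likewise rest on few reads. Some box H/ACA snoRNAs, such as SNORA69 in the control, also met the limit of 1 RPKM through 1 sample alone. The reads of box H/ACA snoRNAs summed to 185, 168 and 194, and the differences from the control of -0.12 (-0.43 to 0.19) and 0.12 (-0.18 to 0.42) had intervals that included 0. SNORA53 had 4, 0 and 1 reads, SNORA1 0, 2 and 3, and SNORA36A 0, 2 and 2. The 11 guide RNAs of Cajal bodies (scaRNAs) and telomerase RNA had 55, 50 and 51 reads together. In DMSO against control 3 were 2-fold lower and 1 higher, in BDE-209 against control 0 and 1, and in BDE-209 against DMSO 2 and 2 (medians -0.35, 0.04 and 0.26). Among them were SCARNA8 with 2, 0 and 1 reads, SCARNA22 with 1, 0 and 6 and TERC, the telomerase RNA, with 3, 8 and 2. The 5 small nuclear RNAs of the spliceosome had 12, 11 and 15 reads, and the 3 that passed 2-fold in DMSO against control, RNU5A-1, RNU5E-1 and RNU4ATAC, each had 1 read in the control and 0 in DMSO. In BDE-209 they had 1, 1 and 2 reads and so passed 2-fold upward against DMSO, while none of the 5 passed in BDE-209 against control. The list medians were -2.06 for DMSO against control, 0.04 for BDE-209 against control and 2.20 for BDE-209 against DMSO.

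Long nuclear RNAs stayed within 2-fold between the samples, with some differences beyond counting error. MALAT1, which collects in nuclear speckles and ends in a triple helix instead of a polyA tail, was at 132 RPKM in the control, 127 in DMSO and 149 in BDE-209. Its log2 differences were -0.06 for DMSO against control (-0.11 to -0.003), 0.17 for BDE-209 against control (0.12 to 0.22) and 0.23 for BDE-209 against DMSO (0.17 to 0.28). OIP5-AS1 was at 30.3, 24.2 and 28.3 RPKM in control, DMSO and BDE-209. Its log2 differences were -0.32 (-0.59 to -0.065), -0.10 (-0.35 to 0.15) and 0.22 (-0.04 to 0.50) in the same order of comparisons. None of the 4 transcripts in this group differed by 2-fold in any comparison. The non-coding shares given for polymerase III RNAs stand beside this count, and nothing is read from it.

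**Figure D5:**
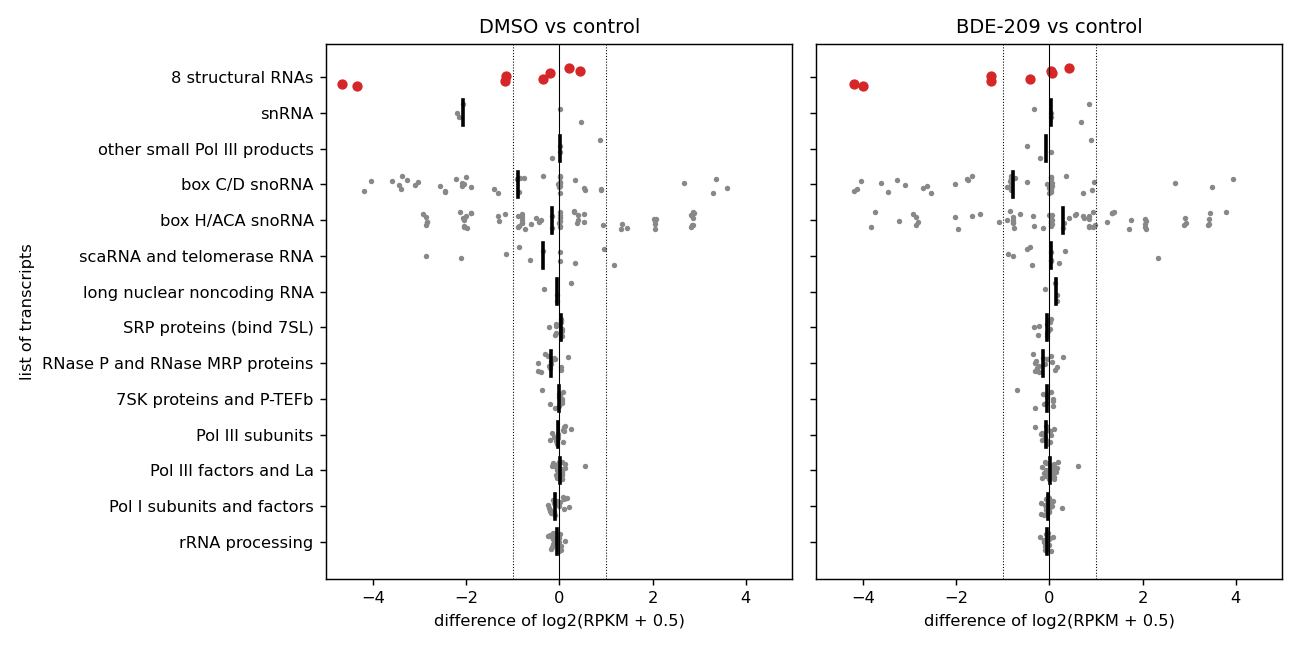
Difference of log2(RPKM + 0.5) of each transcript in lists of related RNAs and proteins (grey, black bar at the median) and of the 8 structural RNAs (red), DMSO against control on the left and BDE-209 against control on the right, with dotted lines at 2-fold. The snoRNA lists are wide at a median of 2 reads in the control, while the protein lists lie within 2-fold of no difference.

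The messenger RNAs of the proteins that bind these RNAs did not differ by 2-fold in any comparison. Over all transcripts, 1.03% passed in DMSO against control, 0.938% in BDE-209 against control and 1.1% in BDE-209 against DMSO, in either direction. By these shares most lists this short would hold none, so nothing is read from the counts. For the SRP proteins, which assemble on 7SL, none of 11 transcripts passed 2-fold, with median differences of 0.03, -0.04 and -0.05 for DMSO against control, BDE-209 against control and BDE-209 against DMSO. SRP9 (NM_003133), which binds the Alu part of 7SL, was at 401, 419 and 390 RPKM in control, DMSO and BDE-209. For 7SK proteins and P-TEFb, none of 11 transcripts passed (medians -0.0031, -0.06 and -0.06), and LARP7 (NM_015454), which binds the 3′ end of 7SK, was at 70.3, 70.2 and 67.5 RPKM. The 15 transcripts of RNase P and RNase MRP proteins had medians of -0.18, -0.13 and 0.10, and none passed. Their summed reads differed from the control by -0.23 in DMSO (-0.31 to -0.14) and -0.16 in BDE-209 (-0.24 to -0.08). The 15 transcripts belong to only 9 genes, and a read shared by isoforms can enter the sum more than once. These intervals are then too narrow, and no decrease is read from them. POP7, a shared subunit, was at 65.0, 56.6 and 53.8 RPKM and RPP25L at 26.3, 24.7 and 25.3 RPKM.

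The enzymes that make and process these RNAs were likewise within 2-fold. The shares over all transcripts given for the binding proteins stand beside these counts too, and nothing is read from them. None of 14 transcripts of polymerase III subunits passed (medians -0.03, -0.07 and -0.08). POLR3K, a small subunit, was at 49.9, 44.4 and 44.4 RPKM in control, DMSO and BDE-209, and POLR3E at 37.6, 39.4 and 36.9 RPKM. None of 23 transcripts of polymerase III factors and La passed (medians 0.0048, 0.01 and 0.03). GTF3A, the factor TFIIIA of 5S rRNA genes, was at 92.5, 95.5 and 95.8 RPKM, and SSB, the La protein that holds the 3′ ends of new polymerase III RNAs, was at 295, 283 and 278 RPKM. Of 19 transcripts of polymerase I and its factors none passed (medians -0.10, -0.03 and 0.05), and POLR1D, a subunit shared with polymerase III, was at 81.4, 68.6 and 75.8 RPKM and TAF1D at 40.9, 39.5 and 43.2 RPKM. Of 21 transcripts for rRNA processing none passed (medians -0.06, -0.05 and 0.01). NCL, nucleolin, was at 839, 819 and 830 RPKM and FBL, the methyltransferase of box C/D particles, at 334, 341 and 320 RPKM. In the same libraries, messenger RNAs (NM_ identifiers) took 94.95% of all RPKM in the control, 95.62% in DMSO and 95.53% in BDE-209.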

How the data were processed

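PolyA RNA of 3 samples (1 each of control, DMSO and BDE-209) was read on an Illumina instrument from one end, 49 bases a read. Alignment by the authors was to hg19 with SOAPaligner and up to 2 mismatches. Reads with a unique position were kept, and expression of each RefSeq transcript was deposited by the authors as RPKM. Counting of reads shared by isoforms or gene copies is not given in the sources used here. Groups were taken from the sample titles and treatment labels. The structural RNAs, the 14 lists of related transcripts and the rules for naming were chosen with earlier results of these data known.

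Transcripts missing from a sample's file were set to 0 RPKM. Symbols were found for 24432 of 25443 identifiers (96.03%) in a RefSeq table of GRCh38.p14. The same table gave the types and lengths of the short RNAs, and the lengths and distances by which the rRNAs were placed in GRCh37. Mapped-read totals were recovered as the numbers that turn the RPKM steps of 260 short RNAs of known length into whole reads, for which 243 lengths could be fitted. They are below the uniquely mapped reads that the study lists, and which reads they cover is not stated. Reads per transcript were the smallest whole numbers that fit all 3 values, or those at the RefSeq length for the short RNAs. For longer transcripts they are lower bounds, which by itself would make the intervals too wide. PCR copies, and isoforms that share reads in summed lists, would make them too narrow. The recovery was tested on simulated samples.

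With 1 sample per group no test was made, and the NOISeq probability used in the study was not computed, since it simulates noise from 1 library. Differences are of log2(RPKM + 0.5), counted at 2-fold or more among the 15573 transcripts with a mean of at least 1 RPKM. Ratio intervals are 95% Clopper-Pearson intervals of reads at the recovered totals, intervals of levels are Poisson and those of shares Wilson. Alternatives were a pseudocount of 0.1 or 1 RPKM, a median-of-ratios or protein-coding scaling, a limit of 4-fold, no minimum level, and 2-fold with an interval that excludes no difference. Besides the 8 structural RNAs, from each list up to 3 transcripts past 2-fold in DMSO against control are named, ordered by size, or if there is none the 2 with the highest mean. The 5 most like RN7SL1 and, per comparison, the 3 largest differences at 100 reads or more are named as well. TVP23C, HOXB2, CCL16 and the extremes among transcripts of at least 100 RPKM fall outside this rule and were named after their values were seen. Sequences were read from GRCh37, with GENCODE 44 lifted to it, and windows of 49 bases were matched exactly on both strands. RPPH1 was not placed and its sequence was not analysed here. Sequences and positions of 7SL and BCYRN1 are not reported here. Figures were drawn with matplotlib 3.10.9, and values computed with scipy 1.17.1, numba 0.67.0, pandas 2.3.3 and numpy 2.4.6 under Python 3.11.15.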

Additional observations from a re-analysis of the deposited data

How the results depend on the processing

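Over 36 results and 141 alternative values, 139 kept their direction and their side of the 2-fold limit or stayed within the counting interval, and none reversed. The exceptions were the counts of structural RNAs at a limit of 4-fold, which came to 2 (RN7SL1 and RN7SL2) in DMSO against control and 2 in BDE-209 against control, in place of 4. Over all transcripts, 45 were lower by 4-fold in DMSO against control and 30 in BDE-209 against control, in place of 88 and 79 at 2-fold. Without a minimum level 206 and 189 were 2-fold lower, and with an interval that excludes no difference 17 and 32. Scaling factors lay between 0.99287 and 1.00428. Pseudocount alternatives were not run for the summed reads of rRNA and of RN7SK, RMRP and RPPH1, which hold no pseudocount. No paired analysis was possible because there was 1 sample per group, and leaving out a replicate was not possible. Depth limits RN7SK, RMRP, RPPH1 and the snoRNAs, and no variation between cultures or libraries is covered.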
